A study of Mus musculus with 40 samples.

Results

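The vehicle kidneys are the 5 of 40 bulk RNA-seq samples whose labels give a dose of 0 µg/kg, so they describe the kidney without the toxicant that the rest of the study used. They came from male C57BL/6 mice (C57BL/6NCrl in the design text) that received 0.1 mL of sesame oil by oral gavage every 4 days, 7 times in all, from an age of 30 days to 58 days. The other 35 mice, in 7 groups of 5, received the dioxin TCDD (2,3,7,8-tetrachlorodibenzo-p-dioxin) in the same oil at 0.03 to 30 µg/kg and were not used here. Dosing and collection fell between ZT0 and ZT3, the first hours after lights on, and RNA came from 100 mg of frozen right kidney, with no dissection of cortex from medulla given in the sources used here. The labels name no donors, litters or batches, so the 5 libraries are taken as 5 mice and the SD is the spread between these libraries, numbered 1 to 5 in the order of their accessions, and a series of 5 values below follows that order.

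The kidney is built from nephrons. Blood is filtered in the glomerulus across podocytes, and the filtrate then passes the proximal tubule (segments S1, S2 and S3), the thin and thick limbs of the loop of Henle, the distal convoluted and connecting tubules and the collecting duct. The proximal tubule recovers most of the sugar, amino acids, phosphate and bicarbonate, secretes organic ions, makes glucose and burns fatty acids, and the later segments set the final content of salt, water, acid and calcium. S1 and S2 lie in the cortex and S3 reaches into the outer medulla. Levels of many mouse proximal tubule genes, above all in S3, are known to depend on androgens.

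Each library held 15746356 to 23738125 counts in genes, and 14036 of 55359 listed genes had a mean of at least 1 CPM, the count scaled to the library's total with TMM factors, and these are termed detected here. Mitochondrial genes held 7.68% to 9.65% of the counts. The 4 genes of the Y chromosome looked at (Ddx3y, Eif2s3y, Uty and Kdm5d) had 21.9 to 61.0 CPM in every library, and Xist, which marks an inactive X, stood at 0 to 0.284 CPM, so all 5 libraries had the male pattern that the labels give. Replicates 1 and 2 stood apart from replicates 3, 4 and 5: on the first principal component of the log2 levels, which held 47.0% of the variance, they scored 24.3 and 20.6, and the other 3 scored -11.8, -18.9 and -14.2. In 2109 detected genes (15.0%) both were under all of the other 3, and in 2292 (16.3%) both were over them. For the other 9 pairs of libraries these shares ran from 6.90% to 13.9%. No pair agreed within sampling noise (chi-square per degree of freedom 6.90 for replicates 1 and 2 and 10.0 to 34.1 for the others). Each library was kept as its own replicate. The chi-square cannot tell separate mice from separate preparations of 1 RNA. As this is 1 group, no test between conditions applies. The error given is the SD over the 5 libraries. A level corrected for gene length is given as counts per kb of exon scaled to the same total in each library (the level per length). Ranks, classes and terms such as low or abundant that rest on CPM are not corrected for gene length.

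Sequence upstream of 5 genes is shown because these genes carry the main pattern of the data. Kap and Gpx3 had the 2 highest nuclear levels per length, and Gatm, Acy3 and Umod had the highest levels of the lists for S1 and S2, for S3 and for the thick ascending limb. Each run gives the 250 bases before the RefSeq start in GRCm38.p6, on the gene's own strand, with matches to 3 short motifs in capitals.
Kap, chr6:133853668-133853917, minus strand: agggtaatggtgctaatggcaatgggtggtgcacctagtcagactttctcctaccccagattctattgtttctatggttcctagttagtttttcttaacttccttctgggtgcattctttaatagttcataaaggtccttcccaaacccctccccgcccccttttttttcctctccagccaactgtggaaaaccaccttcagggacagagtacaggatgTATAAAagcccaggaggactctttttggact
Gpx3, chr11:54902604-54902853, plus strand: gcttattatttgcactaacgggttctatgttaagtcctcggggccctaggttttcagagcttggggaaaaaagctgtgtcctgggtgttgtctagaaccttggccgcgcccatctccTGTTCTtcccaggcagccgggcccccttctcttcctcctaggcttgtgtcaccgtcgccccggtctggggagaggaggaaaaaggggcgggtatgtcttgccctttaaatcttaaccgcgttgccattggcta
Gatm, chr2:122611278-122611527, minus strand: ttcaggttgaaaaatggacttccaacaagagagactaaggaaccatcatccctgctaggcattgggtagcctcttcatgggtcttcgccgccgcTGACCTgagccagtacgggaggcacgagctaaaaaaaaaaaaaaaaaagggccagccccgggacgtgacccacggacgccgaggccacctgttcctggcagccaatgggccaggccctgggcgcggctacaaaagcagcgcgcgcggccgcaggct
Acy3, chr19:3986320-3986569, plus strand: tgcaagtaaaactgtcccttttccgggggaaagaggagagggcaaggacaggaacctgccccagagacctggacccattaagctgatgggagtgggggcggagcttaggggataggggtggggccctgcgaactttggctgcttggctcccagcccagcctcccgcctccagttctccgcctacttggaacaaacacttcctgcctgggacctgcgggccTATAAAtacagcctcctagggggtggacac
Umod, chr7:119479263-119479512, minus strand: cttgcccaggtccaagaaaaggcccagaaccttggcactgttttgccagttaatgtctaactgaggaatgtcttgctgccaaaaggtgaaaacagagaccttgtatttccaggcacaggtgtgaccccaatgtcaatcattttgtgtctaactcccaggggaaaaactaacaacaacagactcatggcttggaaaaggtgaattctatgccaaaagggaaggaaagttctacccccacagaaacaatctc
The motifs were searched on both strands: the TATA box TATAAA, the nuclear receptor half-site AGGTCA and the steroid receptor half-site AGAACA. The first of these began 31 bases before the start in Kap and 30 bases before it in Acy3. AGGTCA was found on the opposite strand of Gatm and AGAACA on the opposite strand of Gpx3, and none of the 3 was found in Umod. Over all 32851 RefSeq windows of this length, 12.4% held TATAAA, 14.0% AGGTCA and 16.1% AGAACA. A match is a description of these letters and shows no binding.

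The transcriptome was led by a few genes. The 10 most abundant genes took 13.3% to 15.0% of the counts of a library, 78 genes at or above 1000 CPM took 26.5% ± 0.681 (SD, n = 5), 665 genes held 50% of all counts and 5568 held 90%. Another 1902 genes at 100 to 1000 CPM held 42.8% ± 0.254, 7505 genes at 10 to 100 CPM held 28.6% ± 0.428, and 4551 genes at 1 to 10 CPM held 1.86% ± 0.0427. Of the 15 genes with the highest mean CPM, 6 were mitochondrial: mt-Co1 (31057 ± 3135 CPM), mt-Cytb (17358 ± 1542), mt-Nd1 (11307 ± 1362), mt-Nd4 (9885 ± 1326), mt-Nd2 (7828 ± 1010.5) and mt-Nd5 (6900.5 ± 857), which code for subunits of the respiratory chain. Among the others were Gpx3, Kap, Slc34a1, the fatty acid activating Acsm2 (4729.7 ± 299), Fth1 (3878 ± 393) and Cyp4b1 (3632 ± 257), and the unnamed ENSMUSG00000119584.

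Kap, the androgen-regulated protein of the proximal tubule, had the highest level per length of all nuclear genes, 58899 ± 19146, but also the widest spread among the 20 highest. Its 5 values were 9904, 9618, 22102, 18805 and 14756 CPM, with replicates 1 and 2 low. Gpx3, the secreted glutathione peroxidase that the kidney releases into plasma, followed at 45843 ± 10070 per length. It showed the reverse order, 35974, 34887, 25320, 27539 and 23955 CPM, with replicates 1 and 2 high. The level ranges of Kap and Gpx3 overlapped, so their order does not hold in every library: Gpx3 was the higher of the pair per length in replicates 1 and 2 and Kap in replicates 3, 4 and 5.

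Among the genes behind these were Klk1 (4587 ± 567 per length), the tissue kallikrein of the connecting tubule, Cyp4b1 (4515 ± 422), Slc34a1 (4275 ± 588), the phosphate carrier of the brush border, and Miox (3949 ± 663), which opens inositol breakdown. Eef1a1 (3678 ± 321), the elongation factor of protein synthesis, Ass1 (3572 ± 424), which serves arginine synthesis, the calcium binding S100g (3486 ± 522), Gpx1 (3374 ± 203) and the iron store Fth1 (3123 ± 186) came lower. Cltrn (2774 ± 359), the partner of amino acid carriers, and Slc27a2, Igfbp7, Akr1c21, Acy3, Cox6a1 and Tcn2 closed the 20, from 2601 ± 418 to 2233 ± 279. Neighbours among the genes named from Klk1 to Tcn2 differed by less than the larger of their SDs, except Gpx1 and Fth1.

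**Figure D1:**
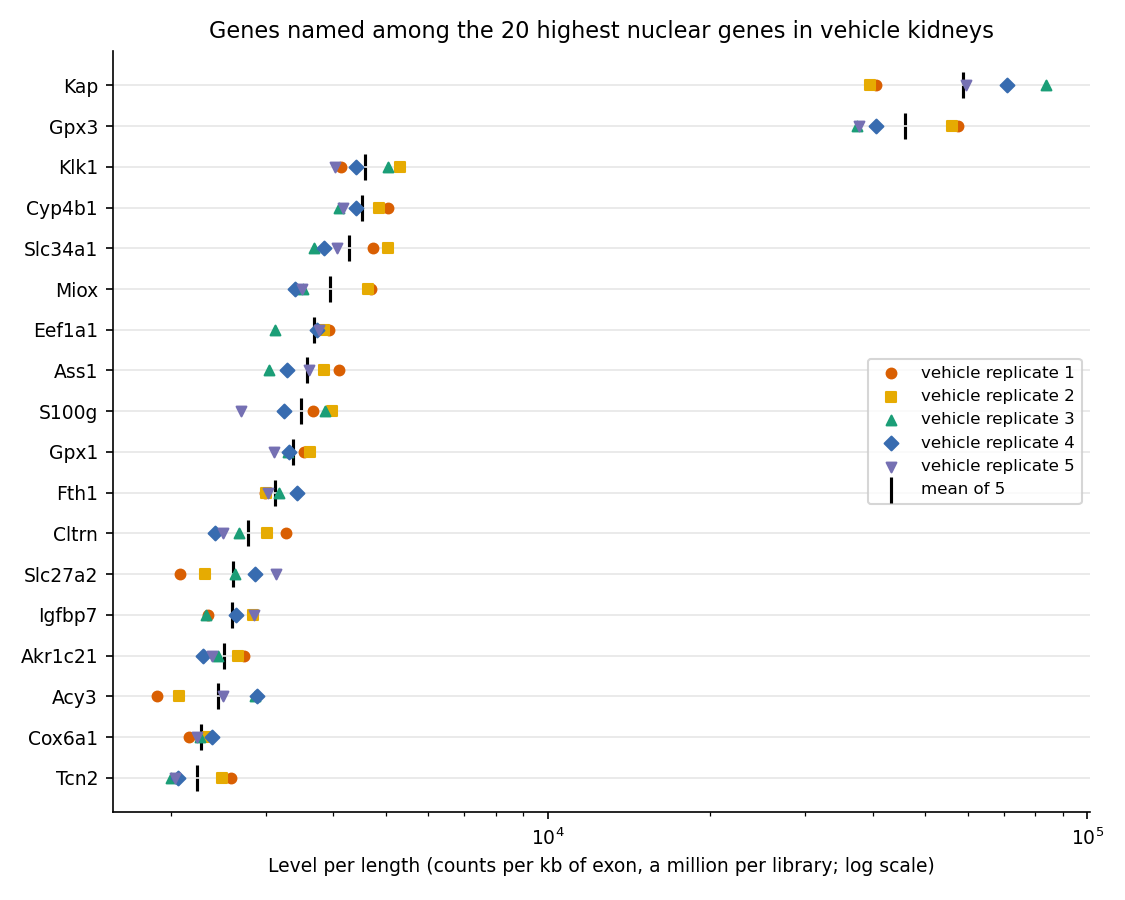
The genes named among the 20 nuclear genes with the highest level per length (log scale) in the 5 vehicle libraries, with points for libraries and a bar for the mean. Kap and Gpx3 stand clear of the others, and replicates 1 and 2 lie low in Kap and high in Gpx3.

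Of 389 named solute carriers, 296 were detected and 87 had at least 100 CPM, and together they held 4.52% ± 0.109 of the counts. Of 100 cytochromes P450, 42 were detected, as were 8 of 11 aquaporins, 80 of 83 ribosomal protein genes and, for contrast, 2 of 1135 olfactory receptor genes. Protein-coding genes held 98.1% ± 0.290 of the counts.

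The lists here and below were written with earlier results of these data known. Their counts beside the shares of all detected genes are therefore a description only. The 12 genes common to all proximal segments were detected without exception, and in 8 of them both replicate 1 and replicate 2 were over the other 3 libraries (16.3% of all detected genes were), with 1 under. They had a median coefficient of variation (CV, SD over mean) of 8.82% against 12.8% over all detected genes, and their summed CPM was 35510, 35712, 31558, 32541 and 31790. The phosphate carrier Slc34a1 stood at 7623, 8116, 6439, 6744 and 6645 CPM. The endocytic receptors Lrp2 (megalin, 3671, 3708, 2526, 2691 and 2827 CPM) and Cubn (cubilin, 574, 533, 452, 494 and 554 CPM) and the factor Hnf4a (999, 1006, 902, 932 and 863 CPM), a main regulator of proximal genes, separated replicates 1 and 2 from the rest, as the higher libraries, in the case of Lrp2 and Hnf4a, but not in the case of Cubn. Slc27a2, a fatty acid carrier, went the other way at 2691, 2979, 3693, 4022 and 4106 CPM.

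The S1 and S2 list was higher in replicates 1 and 2. All 11 members were detected, and in 10 of them both of these libraries were over the other 3, where 16.3% of all detected genes did so. The summed CPM was 8029.9, 8089, 5467, 5375 and 5519.5. Gatm, which makes the creatine precursor, led the list at 1700.4, 1641, 1022, 828 and 943 CPM. The sodium-glucose carrier Slc5a2 (SGLT2) stood at 607, 604, 382, 399 and 400.1 CPM, the bicarbonate carrier Slc4a4 at 1410.2, 1369.6, 873, 809 and 881 CPM and the neutral amino acid carrier Slc6a19 at 480.3, 465, 238, 295 and 339 CPM. In each of these 4 genes replicates 1 and 2 lay close together and above the rest. Slc7a8 (443, 442, 249, 255 and 296 CPM), the lactate carrier Slc5a12 (329, 361, 199, 169 and 229 CPM) and the phosphate carrier Slc34a3 (114, 114, 66.9, 75.4 and 72.9 CPM) had the same order. The organic anion carrier Slc22a6 (OAT1) was the exception, at 1110.2, 1191, 1049, 1137 and 974 CPM, with no such separation, while its relative Slc22a8 (OAT3) had 877, 884, 623, 624 and 617 CPM.

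The S3 list had the opposite order and the widest spread of the nephron lists. In 9 of its 10 members both replicate 1 and replicate 2 were under the other 3 libraries, where 15.0% of all detected genes did so, and the median CV was 47.3%. The summed CPM was 2590.0, 2883, 5698, 5632 and 5001. The steroid hydroxylase Cyp7b1 stood at 26.0, 31.1, 249.8, 283 and 226 CPM and the anion carrier Slc22a7 (OAT2) at 31.4, 45.5, 279.6, 249.8 and 211 CPM, with CVs of 76.3% and 71.4%. Slc22a13 (16.0, 23.1, 109, 113 and 119.6 CPM), the aspartic protease Napsa (310.1, 385, 1279, 1211 and 1192 CPM) and the angiotensin precursor Agt (20.2, 24.7, 65.6, 77.3 and 83.5 CPM) also had replicates 1 and 2 far under the rest. Acy3 (1327, 1455, 2183, 2212 and 1789 CPM), the most abundant member per length, the amino acid carrier Slc7a13 (298, 347, 765, 722 and 716 CPM) and Aadat (134, 153, 315, 314 and 260.3 CPM) had the same order with a narrower gap. Slco1a6 was the exception, at 233, 223, 246, 220.0 and 191 CPM. Slc1a1, a glutamate carrier, had 193, 196, 207, 230.4 and 214 CPM, but 31.9% of its exonic bases are shared with another gene, so its count is uncertain. The column for the sense strand, an alternative reading of the same libraries, gave a mean of 1354 CPM for Napsa in place of 875 and 321 CPM for Slc1a1 in place of 208. Since the libraries do not keep strand, these and later sense-strand counts can hold reads of an overlapping gene and are not corrected levels. Napsa shares 18.9% of its exonic bases with another gene.

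Replicates 3, 4 and 5 alone gave a mean summed CPM of 5444 for S3 in place of 4361 ± 1511, and 5454 for S1 and S2 in place of 6496 ± 1428. In bulk tissue, fewer cells of a type and less RNA per cell cannot be told apart.

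**Figure D2:**
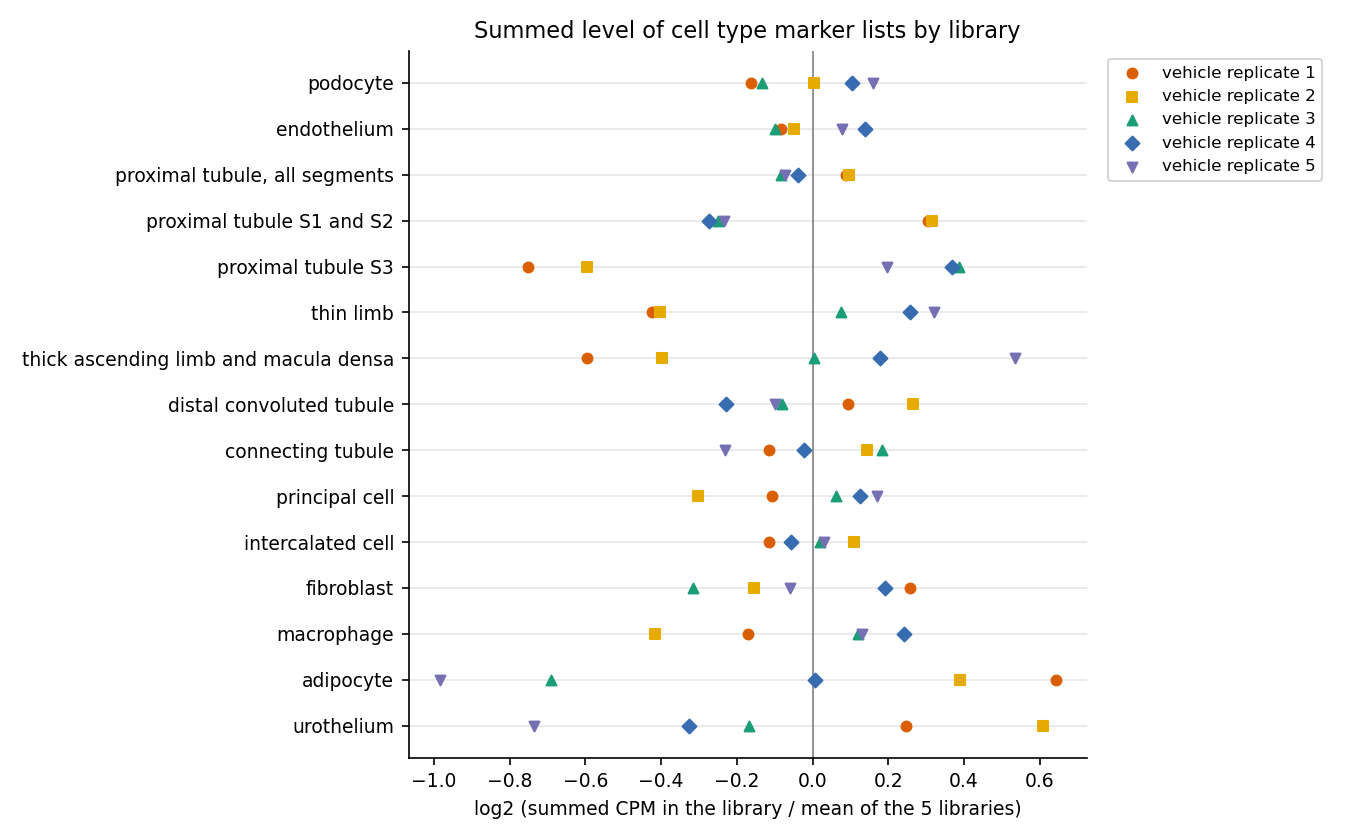
Log2 of the summed CPM of each marker list in a library over the mean of the 5 libraries, for 15 lists. Replicates 1 and 2 lie lowest for the S3, thin limb and thick ascending limb lists and highest for the S1 and S2 and adipocyte lists. The thin limb sum is mainly Aqp1.

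The thin limb list was lower in replicates 1 and 2 in 6 of 6 members, against 15.0% of all detected genes. Its summed CPM was 748, 759.8, 1057, 1200.5 and 1253. The water channel Aqp1, which held most of this sum, had 642, 668, 872, 948 and 971 CPM. The sum therefore mainly follows 1 gene and is not a measure of the thin limb alone. The urea carrier Slc14a2 had 54.7, 33.6, 89.8, 118 and 117 CPM. Corin (1.08, 1.51, 5.35, 7.89 and 10.3 CPM) and Slc4a11 (8.87, 6.94, 19.3, 23.1 and 28.9 CPM) were low but in the same order.

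Of the thick ascending limb and macula densa genes, 10 of 12 were lower in both replicate 1 and replicate 2, against 15.0% of all detected genes, and the summed CPM was 2259, 2592, 3423, 3864 and 4946. The salt carrier Slc12a1 (NKCC2), the target of loop diuretics, stood at 364, 377, 829.6, 881 and 1343 CPM, and Umod, the urinary protein uromodulin, at 549, 685, 896, 1157 and 1465 CPM. In both, replicate 5 was the highest and replicates 1 and 2 the lowest. The mean of Umod, with 19.5% shared exonic bases, was 951 CPM, and 1720.4 CPM in the sense-strand counts, with replicates 1 and 2 still lowest. Egf (841, 979, 1009, 1087 and 1375 CPM) and the phosphatase inhibitor Ppp1r1a (77.5, 100.4, 156, 171 and 184 CPM) followed, and the claudin Cldn19 (12.3, 17.6, 29.0, 38.6 and 43.1 CPM), which forms the magnesium and calcium pathway with Cldn16, had a CV of 46.8%. Cldn10 (160.3, 155, 160.1, 174 and 172 CPM) and the macula densa gene Nos1 (1.19, 1.01, 1.06, 1.29 and 1.51 CPM) were more even. Without replicates 1 and 2 the mean summed CPM was 4078 in place of 3417 ± 1068.

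**Figure D3:**
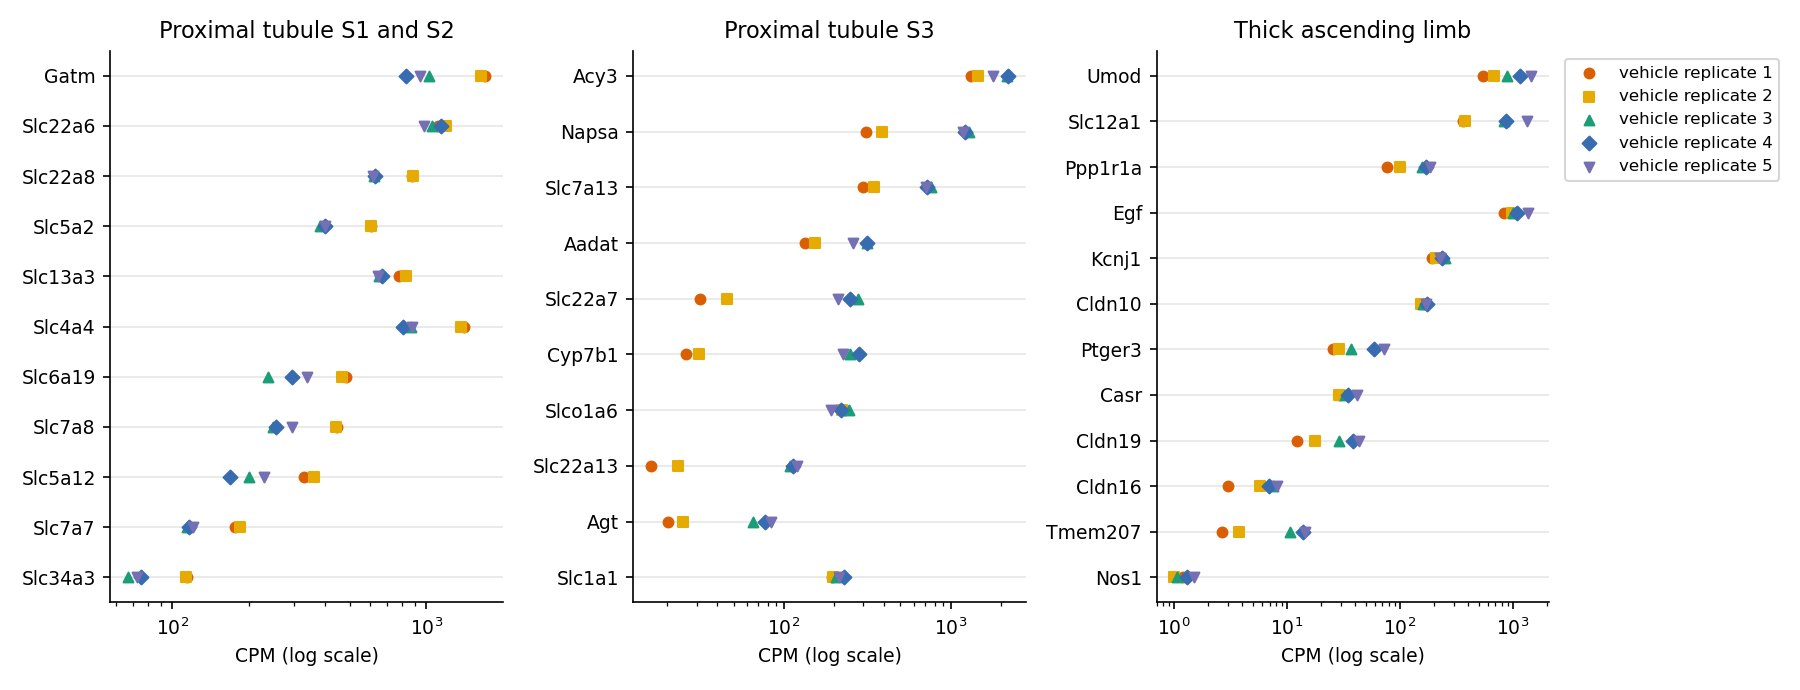
CPM (log scale) of each member of the S1 and S2, S3 and thick ascending limb lists, with a point for each of the 5 vehicle libraries. Replicates 1 and 2 lie to the right for S1 and S2, except in Slc22a6, and to the left for S3, except in Slco1a6, and for the thick ascending limb, except in Cldn10 and Nos1.

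In the distal convoluted tubule, 4 of 8 genes were higher in both replicate 1 and replicate 2, against 16.3% of all detected genes, among them the thiazide-sensitive salt carrier Slc12a3 (NCC), at 1634, 1916, 1351, 1206 and 1349.8 CPM, and the potassium channel Kcnj16, at 665, 659, 593, 546 and 551 CPM. The magnesium channel Trpm6 (31.3, 38.5, 28.5, 25.9 and 30.1 CPM) had the same order by a smaller margin, while the kinase Wnk4 (227, 256, 261, 236 and 289.8 CPM), which controls Slc12a3, did not. In the connecting tubule, Klk1 (1538, 1967, 2029, 1779.7 and 1518 CPM), S100g (608, 655, 691, 583 and 453 CPM) and calbindin Calb1 (528, 597, 639, 539 and 487 CPM) had their lowest value in replicate 5, and the calcium channel Trpv5 stood at 20.1, 27.3, 22.2, 19.7 and 19.9 CPM.

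Among principal cell genes of the collecting duct, 6 of 8 detected members were lower in both replicate 1 and replicate 2, against 15.0% of all detected genes. The vasopressin-regulated water channel Aqp2 had 489, 336, 535, 544 and 557 CPM, with replicate 2 lowest, Aqp3 had 119, 107, 126, 137 and 123 CPM and Aqp4 48.3, 35.5, 54.1, 67.8 and 90.2 CPM. Scnn1b (64.0, 72.1, 67.6, 64.8 and 73.1 CPM) and Scnn1g (61.5, 63.2, 60.8, 57.8 and 68.1 CPM), subunits of the epithelial sodium channel, were nearly level. Avpr2, the vasopressin receptor, was counted at 0 to 0.510 CPM, but 81.3% of its exonic bases are shared with another gene, and reads that fall on 2 genes are not counted, so this value does not describe its level. The sense-strand counts gave 38.9 CPM, which can hold reads of the other gene, since the libraries do not keep strand.

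Intercalated cells, which handle acid and base, had a summed CPM of 719, 841, 790.0, 749 and 795, and all 12 members were detected. Slc26a4 (pendrin) stood at 122, 132, 114, 114 and 127 CPM, the ammonia channel Rhcg at 124, 145, 148, 133 and 128 CPM, the proton pump subunit Atp6v1b1 at 103, 134, 122, 114 and 117 CPM and the factor Foxi1 at 31.6, 41.1, 30.4, 33.7 and 31.7 CPM. Aqp6 differed from these at 28.9, 33.5, 45.5, 58.0 and 67.9 CPM, with the lowest values in replicates 1 and 2. Rhbg shares 61.4% of its exonic bases with another gene and is uncertain, at 1.71 to 4.08 CPM.

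The glomerulus and vessels were present at lower levels. All 14 podocyte genes were detected, with a summed CPM of 513, 575, 523, 617 and 641. In both replicate 1 and replicate 2, 4 of them were under the other 3 libraries and 1 was over. Over all detected genes the shares were 15.0% and 16.3%. The slit diaphragm gene Nphs1 (nephrin) stood at 13.9, 17.2, 16.3, 24.7 and 24.4 CPM, with replicate 1 lowest, Podxl had 167, 186, 164, 208 and 218 CPM and Wt1 8.76, 10.8, 10.6, 12.9 and 13.4 CPM. All 16 endothelial genes were detected, with a summed CPM of 861, 881, 851, 1004 and 961. In both replicate 1 and replicate 2, 4 of them were under and 1 over, where 15.0% and 16.3% of all detected genes were. Plvap (187 ± 23.3 CPM), of fenestrated vessels, led them, Pecam1 had 50.1, 53.4, 52.7, 63.1 and 63.4 CPM and Kdr 84.7, 84.0, 61.9, 64.3 and 69.3 CPM, the last being the 1 gene that was over.

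In the wall of the vessels, 10 mural and juxtaglomerular genes were detected. In both replicate 1 and replicate 2, 4 of them were lower, Ren1 and Rgs5 included, and 1 was higher. Over all detected genes the shares were 15.0% and 16.3%. Renin (Ren1) of the juxtaglomerular cells ranged over 13.9, 21.0, 30.2, 55.2 and 40.9 CPM, a 3.98-fold span, with replicate 4 highest and replicate 1 lowest. The pericyte gene Rgs5 had 13.7, 21.7, 34.3, 29.0 and 37.3 CPM, Pdgfrb 49.0, 44.4, 36.6, 45.7 and 45.2 CPM and smooth muscle Acta2 29.1, 20.9, 22.4, 32.2 and 26.6 CPM. Tagln, with 67.9% shared exonic bases, is uncertain, at 0.112 to 0.323 CPM against 30.1 CPM in the sense-strand counts. The 10 fibroblast genes were all detected. Col1a1 (73.2, 49.0, 42.7, 59.6 and 47.6 CPM), Col1a2 (101, 75.9, 74.4, 101 and 81.8 CPM) and Dcn (73.4, 46.9, 42.2, 56.5 and 44.9 CPM) were highest in replicates 1 and 4, and Pdgfra (30.7, 24.6, 24.8, 40.4 and 46.2 CPM) was highest in replicates 4 and 5.

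Immune cell genes were low. All 12 macrophage genes were detected, among them C1qa (13.7, 11.7, 11.1, 12.8 and 8.83 CPM), C1qb (16.3, 13.0, 11.8, 13.7 and 11.8 CPM), Lyz2 (23.9, 15.2, 16.9, 20.2 and 12.7 CPM) and Cx3cr1 (4.15, 4.67, 5.56, 5.24 and 4.69 CPM). Csf1r, the receptor that macrophages need to survive, had 29.3, 28.3, 75.5, 83.1 and 79.4 CPM. In Csf1r and, by a small margin, in Cx3cr1 both replicate 1 and replicate 2 were under the other 3 libraries, and 1 of the 12 genes was over. Of all detected genes, 15.0% were under and 16.3% over. The 5 genes of class II antigen presentation were even, with a median CV of 6.69%, and Cd74 stood at 114, 119, 104, 107 and 118 CPM. Of 13 lymphocyte genes 3 were detected, Ighm (7.39, 7.89, 4.97, 5.11 and 4.69 CPM), Cd8a (3.36, 2.26, 2.85, 2.46 and 4.53 CPM) and Cd79b (0.967, 1.11, 0.849, 1.36 and 1.62 CPM), and Cd3e was at 0.194 to 0.559 CPM.

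Neighbouring tissues left different traces. Adipocyte genes were all detected, and 7 of 8 were higher in both replicate 1 and replicate 2, against 16.3% of all detected genes, with a summed CPM of 202, 169.8, 80.3, 130.1 and 65.4. Adipoq stood at 22.2, 20.9, 8.15, 13.1 and 7.77 CPM, Cfd (adipsin) at 90.4, 56.9, 31.8, 64.4 and 25.1 CPM, Lep (leptin) at 5.80, 4.32, 1.23, 0.388 and 0.727 CPM and the brown fat gene Ucp1 at 11.8, 15.8, 9.77, 9.38 and 4.14 CPM. Urothelial genes, of the lining of the renal pelvis, had a summed CPM of 44.7, 57.5, 33.5, 30.1 and 22.6. They were higher in both replicate 1 and replicate 2 in 4 of 6 cases, against 16.3% of all detected genes. Upk1a stood at 12.3, 15.0, 8.87, 8.80 and 5.87 CPM and Upk3a at 9.72, 13.9, 9.09, 4.85 and 5.98 CPM. The part of these tissues in the order of the nephron lists was not tested.

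None of 6 pancreas genes exceeded 3 counts in any library, nor did 7 of 8 adrenal genes, the exception being Star at 4.44, 5.28, 5.18, 4.79 and 3.74 CPM, and 4 of 6 skeletal muscle genes. Of the liver genes, Alb was at 8.53, 7.59, 6.16, 6.28 and 7.99 CPM and had no common order. Ttr (65.9, 70.9, 152, 188 and 126 CPM) and Serpina1a (3.70, 5.68, 29.8, 37.7 and 34.9 CPM) were low in both replicate 1 and replicate 2. Another 2 of the 6 detected liver genes were high in both. Of all detected genes, 15.0% were low and 16.3% high in both. The red blood cell list, of 4 haemoglobin genes and 1 gene of haem synthesis, had a summed CPM of 493, 572, 428, 564 and 705, but the near-identical Hba-a1 and Hba-a2, and Hbb-bs and Hbb-bt, share reads, so their split between copies is uncertain.

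Genes known to be higher in male kidney had a summed CPM of 17124, 16543, 29969, 27292 and 21568, which Kap dominated. Of 11 members, 6 were lower in both replicate 1 and replicate 2, against 15.0% of all detected genes, and 2 were higher, against 16.3%. Among the 6 were Slco1a1 (115, 90.1, 289, 279.9 and 168 CPM) and Slc7a13 and Cyp7b1, which the S3 list also holds. Acsm3 (123, 119, 363, 397 and 315 CPM) had 39.8% shared exonic bases and a mean of 534 CPM in the sense-strand counts, in place of 263. Cyp2e1 (1348, 1208, 1266, 1437 and 1089 CPM), Cyp4b1 (3922, 3773, 3453, 3727 and 3286 CPM) and Odc1 (858, 848, 976, 1067 and 588 CPM), which makes polyamines, did not have that order. Of the 4 genes listed, from general knowledge, as higher in female kidney, Cyp2a4 stood at 92.2, 110.4, 326, 241 and 279.9 CPM and Cyp4a14 at 36.7, 38.4, 22.5, 15.1 and 16.1 CPM. These 2 were on opposite sides in replicates 1 and 2. The sex difference of these genes cannot be seen in these male libraries.

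Of 9 genes of glucose transport and production, 6 were higher in both replicate 1 and replicate 2, against 16.3% of all detected genes. Glucose-6-phosphatase G6pc, which releases glucose, had 863, 799.5, 495, 563 and 643 CPM and the glucose exit carrier Slc2a2 254, 246, 166, 167 and 190.4 CPM, both with replicates 1 and 2 on top. The entry enzyme Pck1 had 983, 1082, 1185, 1123 and 969 CPM and Fbp1 1106, 1076, 918, 996 and 936 CPM. For ammonia production, Glud1 had 590.0, 564, 456, 499.6 and 461 CPM and the glutamine carrier Slc38a3 8.19, 10.4, 26.9, 28.2 and 32.4 CPM, the first with replicates 1 and 2 high and the second with both low.

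Organic ion carriers were detected in all 18 cases, with a summed CPM of 6326, 6529, 6618, 6737 and 6181, a CV of 3.46%, and 5 members were lower and 6 higher in both replicate 1 and replicate 2, where 15.0% and 16.3% of all detected genes were. The toxin exporter Slc47a1 (MATE1) was among the most even, at 841, 847, 831, 862 and 822 CPM, while Slc22a19 (18.9, 17.5, 127, 130.3 and 124 CPM) and Slco4c1 (6.03, 7.54, 27.9, 27.3 and 38.3 CPM) had the S3 order. The urate carrier Slc22a12 (URAT1) stood at 879, 1030.5, 1138, 1099.7 and 966 CPM, with 30.1% shared exonic bases. Of 12 amino acid carrier genes, 7 were higher and 3 lower in both replicate 1 and replicate 2 (16.3% and 15.0% of all detected genes). Slc6a18 (486, 461, 796, 781 and 840.0 CPM) was lower and its relative Slc6a19 higher.

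The 13 salt pump and channel genes had a median CV of 8.86%, and 3 of them were lower and 4 higher in both replicate 1 and replicate 2, where 15.0% and 16.3% of all detected genes were. The pump subunits Atp1b1 (1626, 1864, 1732, 1962 and 2006 CPM) and Fxyd2 (1849, 1948, 2131, 1949 and 1806 CPM) and the proton exchanger Slc9a3 (146, 142, 127, 135 and 159 CPM) did not separate replicates 1 and 2 from the rest.

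Fatty acid oxidation genes had all 15 members detected and a summed CPM of 4369, 4228, 4746, 4921 and 4718. In both replicate 1 and replicate 2, 5 were lower and 6 higher, where 15.0% and 16.3% of all detected genes were. Among the lower were the peroxisomal enzyme Ehhadh (506, 505, 634, 685 and 683 CPM) and the mitochondrial Acadm (596, 598, 1007, 842 and 799 CPM). The carnitine enzyme Cpt1a had 402, 456, 338, 395 and 459.6 CPM.

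Antioxidant genes were headed by Gpx3, followed by Gpx1, Selenop (1852, 1666, 1743, 1939 and 1652 CPM), Cat (1031, 974, 977, 1047 and 1055 CPM) and Ggt1 (956, 1028, 1234, 1337 and 1217 CPM). The glutathione synthesis genes Gclc (181, 191, 289.7, 274 and 282 CPM) and Gclm (283, 277, 424, 394 and 399.6 CPM) and the transferase Gstm1 (328, 336, 503, 536 and 491 CPM) were lower in replicates 1 and 2, and Gsta2 (247, 249, 124, 125 and 145 CPM) was higher. Mt1 stood at 75.1, 76.8, 75.9, 85.5 and 70.6 CPM, and Mt2, with 73.5% shared exonic bases, at 0 to 0.129 CPM, a value that does not describe its level (21.7 CPM in the sense-strand counts).

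Hormone and vitamin D genes included Kl (klotho, 1143, 1269.8, 1049, 1141 and 1089 CPM), Vdr (298, 334, 303, 315 and 360.4 CPM) and Pth1r (660.2, 707, 754, 712 and 679 CPM), which spanned 1.21-fold, 1.21-fold and 1.14-fold across libraries. The vitamin D degrading Cyp24a1 had 44.4, 38.8, 38.1, 24.8 and 193 CPM, with replicate 5 far above the rest, while the activating Cyp27b1 had 5.23, 7.69, 5.56, 2.91 and 4.75 CPM. Ace stood at 90.1, 86.3, 219, 265 and 231 CPM, with replicates 1 and 2 low, and erythropoietin Epo at 0 to 0.453 CPM.

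Among the targets of the Ah receptor, which TCDD activates, Cyp1a1 had 1.14, 3.97, 1.57, 3.36 and 1.68 CPM and Cyp1a2 0 to 0.388 CPM, Ahrr 0.512, 0.603, 1.06, 1.04 and 2.24 CPM, Tiparp 34.3, 29.5, 28.2, 26.4 and 23.9 CPM, Cyp1b1 21.2, 23.9, 19.6, 23.9 and 25.2 CPM and Nqo1 38.3, 35.5, 53.8, 52.5 and 56.9 CPM. Nqo1 was lowest in replicates 1 and 2 and Tiparp highest in them. The receptor Ahr stood at 11.1, 11.4, 7.86, 10.9 and 8.77 CPM and its partner Arnt at 47.7, 49.6, 43.9, 31.1 and 49.6 CPM.

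Of 13 transcription factors of tubule cells, 7 were higher in both replicate 1 and replicate 2, against 16.3% of all detected genes. Only 1 was lower in both, against 15.0%. Hnf4a and Tfcp2l1 (408, 408, 394, 370.1 and 379 CPM) spanned 1.17-fold and 1.10-fold from lowest to highest. Interferon response genes were low, with Ifit3 at 12.9, 11.0, 20.7, 23.4 and 20.1 CPM and Isg15 at 2.22, 1.51, 2.04, 1.94 and 2.12 CPM. Of 9 injury markers, 7 were detected, with a summed CPM of 1007, 1097, 989, 900.2 and 872 over the list. Havcr1 (KIM-1), at 0.910, 0.352, 1.10, 2.26 and 1.45 CPM, and Lcn2, at 1.31, 0.855, 2.68, 2.13 and 1.68 CPM, were near the lower bound of detection. The matrix gene Spp1, also made by healthy tubules, had 718, 711, 614, 541 and 552 CPM. Cell cycle genes were low as well: Mki67 had 1.71, 3.32, 5.69, 4.08 and 3.63 CPM, Top2a 2.50, 3.67, 1.74, 3.36 and 2.29 CPM and Pcna 37.6, 38.4, 38.8, 37.7 and 37.1 CPM.

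The clock genes had a median CV of 22.8%, against 12.8% over all detected genes. Nr1d1 (REV-ERB alpha), whose transcript peaks by day, had 12.2, 31.4, 40.1, 56.9 and 61.3 CPM, a 5.04-fold span, and Cry1 had 18.6, 6.64, 6.67, 12.2 and 5.37 CPM, with replicate 1 at the low end for the first and the high end for the second. The sense-strand counts gave a mean of 69.5 CPM for Nr1d1 in place of 40.4, again with replicate 1 lowest. Nr1d2 (27.4, 46.0, 57.8, 49.6 and 65.0 CPM) had replicate 1 lowest as well, and Npas2 (47.1, 39.5, 23.1, 38.8 and 32.2 CPM) had it highest. Per2 (22.8, 18.6, 23.2, 20.8 and 17.7 CPM), Clock (83.0, 80.2, 74.9, 65.5 and 71.5 CPM) and Arntl (BMAL1, 35.9, 33.5, 26.9, 32.2 and 25.8 CPM) were closer. Immediate early genes were low, with Fos at 0.967, 0.653, 0.382, 0.453 and 0.615 CPM and Jun at 20.1, 21.1, 23.4, 21.1 and 21.5 CPM. Dusp1 had 26.0, 28.7, 28.2, 32.3 and 54.4 CPM, with replicate 5 set apart. Of the heat shock genes, Hspa8 had 1738, 2265, 2919, 3085 and 2104 CPM and Hsp90aa1 398, 416, 613, 454 and 400.1 CPM.

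The spread between libraries was widest at low levels. The median CV was 12.8%, of which counting alone gives 4.95%, and it was 25.4% for genes at 1 to 10 CPM, 10.4% at 10 to 100 CPM, 7.80% at 100 to 1000 CPM and 9.30% at 1000 CPM or more. The common biological CV, over the genes that passed edgeR's filter for low counts, was 16.0%, and 13.3% without replicates 1 and 2. In 8825 detected genes (62.9%) the highest library was within 1.5-fold of the lowest, and in 2366 (16.9%) it was more than 2-fold above it. Of the 10 genes with the highest CV at 100 CPM or more, Cyp7b1, Slc22a7, Napsa and Slc12a1 are given above. Serpina1f (21.3, 30.1, 163, 176 and 189 CPM), the brush border protease Mep1b (40.0, 51.6, 259, 302 and 262 CPM), the steroid reductase Akr1c14 (42.8, 50.3, 200.2, 156 and 155 CPM) and the urokinase Plau (202, 172, 382, 507 and 641 CPM) also had replicates 1 and 2 lowest. Lars2 and an unnamed identifier are described with the other observations. The 10 lowest CVs, 1.34% to 1.75%, belonged to Cttn (156, 159, 157, 155 and 159.9 CPM), BC005537, Dmtn, Isca1, Arhgef5, Mfsd4b1, Cct2, Ehd1, Psmd11 and Hykk (462, 477, 457, 472 and 462 CPM). For all of these but Hykk, counting alone gives a CV at least as large as the one measured.

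**Figure D4:**
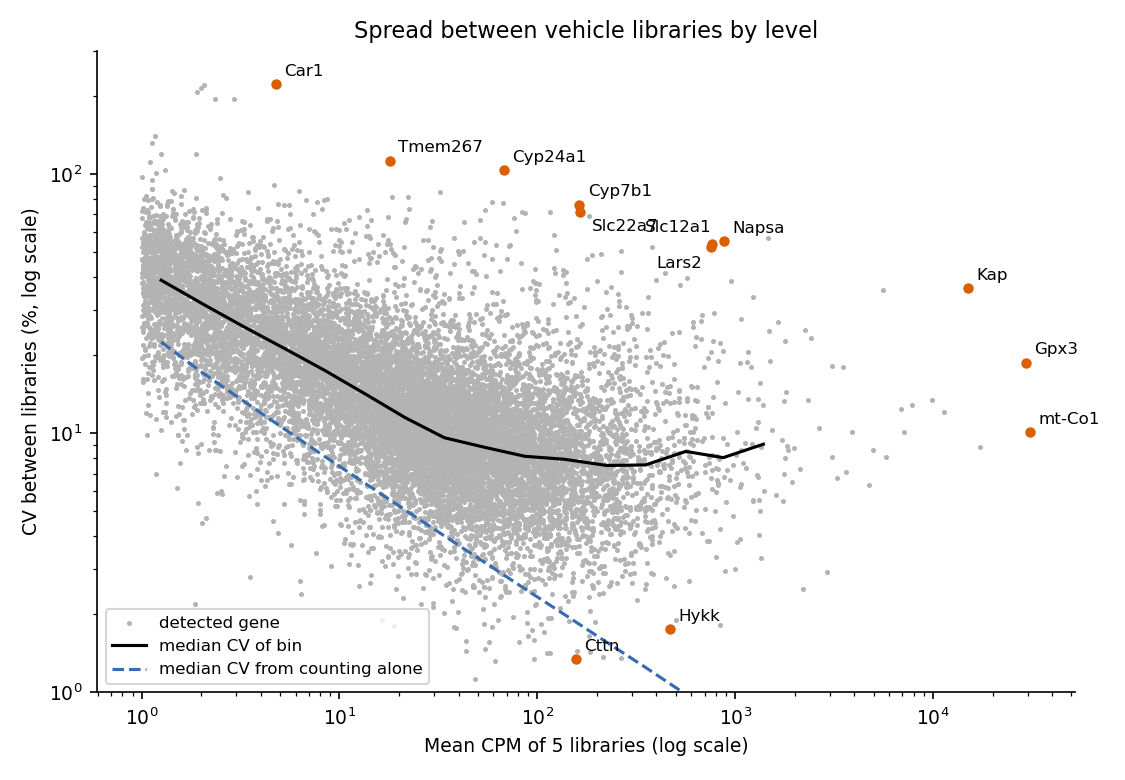
CV between the 5 libraries against mean CPM for the 14036 detected genes (both axes log), with the median in bins of at least 20 genes and the median expected from counting alone. The S3 and thick limb genes named lie well above the line at their level, and Cttn and Hykk lie far below it.

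At 1 CPM or more, the highest CV belonged to genes that 1 or few libraries held. Car1, the carbonic anhydrase of the colon and red cells, stood at 0, 23.8, 0.0849, 0 and 0 CPM, Cyp2c55 at 0, 10.3, 0.0849, 0 and 0 CPM, the mucins Muc2 and Muc3 at 0.284, 13.1, 0.764, 0.259 and 0.224 CPM and 0, 10.5, 1.27, 0 and 0 CPM, Dmbt1 at 0.284, 9.70, 0, 0 and 0 CPM, Lypd8 at 0.0569, 9.00, 0.297, 0 and 0.168 CPM and Krt20 at 0.227, 3.57, 1.53, 0.0647 and 0.224 CPM. All 7 were highest in replicate 2, and Muc3 and Krt20 had their next highest value in replicate 3. A list of 20 genes of the large intestine, written after these values were seen, had Cdx1 (0, 0.402, 0, 0 and 0 CPM) and Cdx2 (0, 0.452, 0, 0 and 0 CPM), the factors that define intestinal cells, in replicate 2 alone, whereas Car4 (149 ± 12.1 CPM) and Vil1 (221, 217, 212, 240.3 and 230.2 CPM), which the kidney also makes, were even. In replicate 2 the intestinal genes named reached at most 23.8 CPM, and their part in any other result was not tested. Tmem267 (5.69, 3.27, 10.1, 52.7 and 17.8 CPM) was highest in replicate 4, Cpxm2 (15.8, 4.17, 2.76, 4.27 and 4.14 CPM) and Meox2 (5.80, 1.36, 1.70, 0.388 and 0.224 CPM) in replicate 1 and Cyp24a1 in replicate 5. Leaving out that library took the mean of Tmem267 from 17.9 to 9.22 CPM, of Cpxm2 from 6.22 to 3.83 CPM and of Cyp24a1 from 67.8 to 36.5 CPM.

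**Figure D5:**
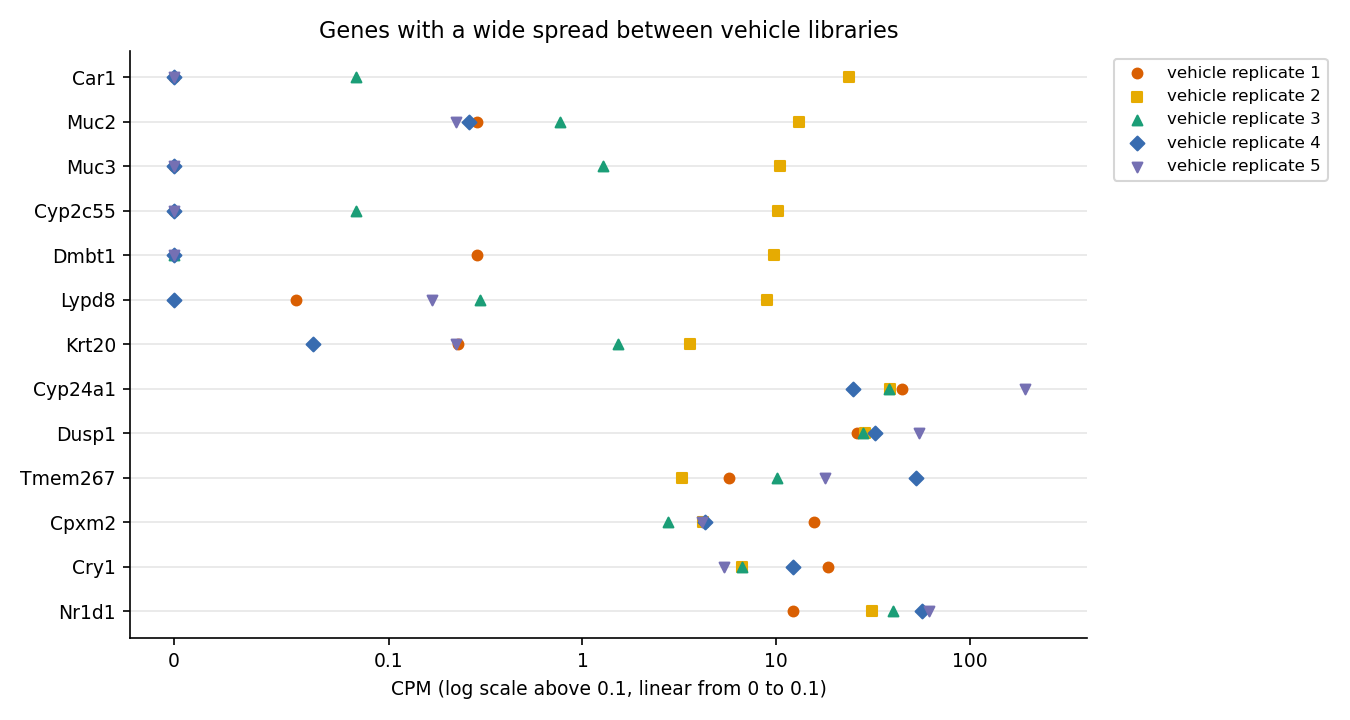
CPM of 13 genes with a wide spread in the 5 vehicle libraries (log scale above 0.1 CPM, linear from 0 to 0.1 CPM). The 7 genes at the top are highest in replicate 2, Cyp24a1 and Dusp1 in replicate 5, and Tmem267 in replicate 4.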

How the data were processed

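RNA-seq counts of 5 vehicle kidneys were used. The authors deposited whole-number counts per gene in the layout of STAR gene counts, with an unstranded and 2 stranded columns. The submitters' processing notes name FastQC 0.11.7, Trimmomatic 0.39, STAR 2.7.3a and DESeq2, and the builds GRCm39 and mm10 with no role. The annotation is not given in the sources used here. The stranded columns held 50.6% to 50.9% in the first of them, so strand is not kept, and the unstranded column was used. Overlapping genes, and antisense genes, are therefore not told apart, and reads mapping to several places (7.55% to 9.05%) were not counted, which lowers near-identical copies. The lines that name no gene (unmapped 1.53% to 2.30%, no feature 5.55% to 6.66%, ambiguous 5.52% to 5.74%) stayed out of library sizes. Of 55359 identifiers, 52083 had a name in GENCODE M21, which also gave exon lengths and shared exonic bases, and 3276 had none (0.429% to 1.01% of counts).

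CPM was scaled with edgeR 4.0.16 TMM factors (0.982 to 1.01). The common biological CV came from edgeR, with DESeq2 size factors as an alternative. Depth sets the precision: counting alone gave a median CV of 4.95%, and without molecular identifiers this covers counting error only. Genes named were the 15 highest by CPM, the 20 nuclear genes highest per length, the leading and widest members of the lists, and the highest and lowest CVs. The lists and genes were chosen with earlier results of these data known. The spread calculation was tested on simulated data. Of 414 genes in the lists, 302 had a RefSeq promoter, and the lists' symbols G6pc1 and Bmal1 were matched under older names. The alternatives were the sense column, other scalings, other filters, leaving out libraries and another gene length. Some genes that these rules name are not reported here.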

Additional observations from a re-analysis of the deposited data

Results flagged for a closer look

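Of 280 values checked over the 5 libraries (library measures, the genes named and the list sums), 19 (6.79%) had 1 library set apart by more than 0.71 of the whole range. Chance alone sets apart about 1 in 20 values not chosen for their spread, and over all detected genes it was 736 (5.24%). Some of the genes named were chosen for a high CV in these libraries. Cdx1 and Cdx2 came from a list written after these values were seen. The 6.79% therefore cannot be set against chance. No explanation was tested.

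Replicate 4 had a count in 20298 genes, fewer than the 21495 to 21930 of the others, and is the library with the fewest counts. Among the others this number did not follow depth. Replicate 3 had 23738125 counts and 21565 such genes, and replicate 5 had 17641340 counts and 21930. Replicate 2 held the intestinal genes, with Car1 at 23.8 CPM, Muc2 at 13.1 CPM, Muc3 at 10.5 CPM, Cyp2c55 at 10.3 CPM, Dmbt1 at 9.70 CPM, Lypd8 at 9.00 CPM, Cdx2 at 0.452 CPM and Cdx1 at 0.402 CPM. Replicate 1 was highest for Cpxm2 (15.8 CPM) and Meox2 (5.80 CPM) and lowest for Cct2 (155 CPM). Replicate 5 was highest for Cyp24a1 (193 CPM) and Dusp1 (54.4 CPM) and lowest for Gpx1 (1568 CPM). Replicate 3 was highest for Hsp90aa1 (613 CPM) and ENSMUSG00002076542 (4.08 CPM), and replicate 4 for Unc45bos (2.72 CPM) and Tagln (0.323 CPM).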

How the results depend on the processing

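Ranked per length, 162 genes held 50% in place of 665. The 10 most abundant genes held 14.2% of the counts, 13.1% in the sense column, 9.17% without mitochondrial genes and 30.2% per length. The median CV of 12.8% became 15.0% in the sense column, 9.84% at a mean of at least 10 CPM and 38.3% with no filter beyond 1 count, and ran from 12.0% to 12.8% when each library was left out in turn. The common biological CV of 16.0% became 19.3% with no filter beyond 1 count. With replicates 1 and 2 both left out, an alternative chosen after seeing the data, the median CV was 11.4% and the common biological CV 13.3%. Genes detected numbered 12984 at 1 CPM or more in all 5 libraries. Under total gene counts no named level moved by more than 1.502%. The sense column moved 69 of 274 named levels by more than 1 SD. Under it, 8 of 10 S3 genes, 10 of 11 S1 and S2 genes and 11 of 12 thick limb genes had replicates 1 and 2 on the side given. With the median transcript length, also chosen after seeing the data, 12 of the 20 nuclear genes highest per length stayed among the 20, and Kap and Gpx3 still led. No paired analysis was possible because 1 group was used and its numbers pair nothing. At the lowest depth 3 counts correspond to 0.194 CPM, so levels under that are not told from 0.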

Other observations

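Some transcripts outside the gene lists varied together by library. Lars2, which codes for the mitochondrial leucyl-tRNA synthetase, stood at 1303, 733, 937, 512 and 274 CPM, and the unnamed ENSMUSG00002076173 stood at 2637, 1501, 1834, 909 and 470.3 CPM, with the libraries in the same order. The unnamed ENSMUSG00000119584, among the 15 most abundant genes, had 6748, 6009, 7985, 3628 and 3402 CPM, with replicate 3 highest. In Lars2 and both unnamed identifiers, replicates 1, 2 and 3 were over replicates 4 and 5. The share of counts in identifiers with no name, these included, had the same split, at 0.979%, 0.794%, 1.01%, 0.476% and 0.429%. It differs from the split of replicates 1 and 2 against the rest. In the sample list, treated mice stand between replicates 3 and 4. The mitochondrial ribosomal RNAs mt-Rnr1 and mt-Rnr2 stood at 634, 595, 938, 899.6 and 710.2 CPM and 937, 952, 1446, 1372 and 1075 CPM. Neither unnamed identifier is in the name table, so no sequence or position is given for them, and the cause was not tested.

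Other genes with a high CV had low levels. Gm6300, an unprocessed pseudogene, had 6.82, 9.05, 70.4, 50.6 and 24.4 CPM, with replicates 1 and 2 lowest. Ctxn3 had 0.114, 0.201, 1.91, 3.62 and 0.447 CPM, Capn11 0, 3.97, 1.27, 0.259 and 0.335 CPM, Lrrn4 3.13, 0.251, 0.510, 0.194 and 1.45 CPM, the acute phase gene Serpina3n 3.64, 0.503, 0.594, 1.42 and 0.391 CPM, Unc45bos 0.398, 0.452, 0.552, 2.72 and 0.894 CPM and the linker histone Hist1h1d 0.569, 0.653, 0.0425, 3.11 and 1.56 CPM. The unnamed ENSMUSG00002076542 had 0.569, 0.653, 4.08, 1.49 and 1.40 CPM.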
